A study of Saccharomyces cerevisiae with 24 samples.

Results

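PG-353 is one of 8 Saccharomyces cerevisiae strains that were adapted to grow in hydrolysate, the sugar-rich liquor made from plant biomass, and its RNA was compared here with that of a reference strain labelled GFP, after its green fluorescent protein. It was chosen by its genotype label, which 3 of the 24 arrays of the study carry, 1 on each of 3 slides, always at the same place (column 3, row 1). On every one of these 2-colour arrays RNA of PG-353 and of the GFP reference competed for the same spots. Cy5 marked PG-353 on slides 1 and 3, and the dyes were swapped on slide 2. The slides are the replicates and carry the replicate numbers. The design text speaks of biological replicas without saying which cultures were separate, so the p-values measure the spread between arrays. In the main fit that spread is taken within strains over all 24 arrays, and not from the 3 of PG-353 alone. Per the labels, mutants and references alike had YNB minimal medium lacking glucose and also hydrolysate at 1 g/mL, and whether these were 1 medium or separate ones is not said. PG-259 and PG-132, both also set against the GFP reference with 3 arrays each, serve as comparison. M1, PR-438, PR-338 and PR-164 were set against a reference labelled DsRed, and PY-231 against one labelled YFP. The arrays of these strains also enter the main fit. The labels name no mutation, so PG-353 is known only by its code.

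Hydrolysates carry furan aldehydes, phenolic compounds and weak acids besides sugar. Yeast is known to meet them with reductases that turn aldehydes into less toxic alcohols, with stress and heat shock proteins, and with changes to the cell wall. Furan reduction draws on NADPH, and so do sulfate assimilation and other reductive pathways. Mitochondria have their own ribosomes, which make a few subunits of the respiratory chain and the ATP synthase.

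Values below are log2 ratios of PG-353 over the GFP reference, with each array's median set to 0, so that every value is relative to the typical gene of that array. A fitted ratio comes from 1 limma model over the 24 arrays with a dye term, and is given with its SE. The dye term is shared by all strains, so a fitted ratio also draws on the arrays of the other strains. Taken over all strains, this term gives slide 2 the same weight in a fitted ratio as the sum of the other slides. A gene was called at a Benjamini-Hochberg adjusted p under 0.05 over all 4069 named genes. The labels do not say which strain is the numerator on slide 2. The ratio was read as mutant over reference on all slides, because large differences in other strains keep their sign that way. In M1, the pheromone receptor genes STE2 and STE3 read 3.92 and -6.13 on slide 2, and 4.29 and -5.71 on slide 3, though -0.24 and 0.56 on slide 1. AAD3 and RDS1, described below, were at -1.28 or lower on all 3 slides in PR-338 and PR-164. The opposite reading of slide 2 would reverse each of these genes there. It is kept as a check of how much the results rest on slide 2.

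The 3 arrays of PG-353 resembled each other little, except replicates 1 and 3, which share a dye orientation. Across 4068 genes, which are not independent replicates, the Spearman correlation was -0.17 between replicates 1 and 2 and 0.44 between replicates 1 and 3. Replicates 2 and 3 stood at -0.23. With the mean of each slide's 8 arrays removed, these values were -0.12, 0.06 and 0.08. Before that removal, the 7 other strains of the same slide correlated with PG-353 at -0.03 to 0.67 on slide 1 (median 0.38), 0.06 to 0.67 on slide 2 (median 0.49) and 0.08 to 0.72 on slide 3 (median 0.50). Replicate 1 was the dimmest of the 3 arrays of PG-353. Its median was 243 units in the channel of the mutant, against 2034 on replicate 2 and 668 on replicate 3. The 2 probes of a gene correlated at 0.48, 0.86 and 0.68 on the 3 arrays. Ratios also moved with brightness, since the brightest 5% of genes had a median of 1.05, -0.76 and 1.39.

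**Figure D1:**
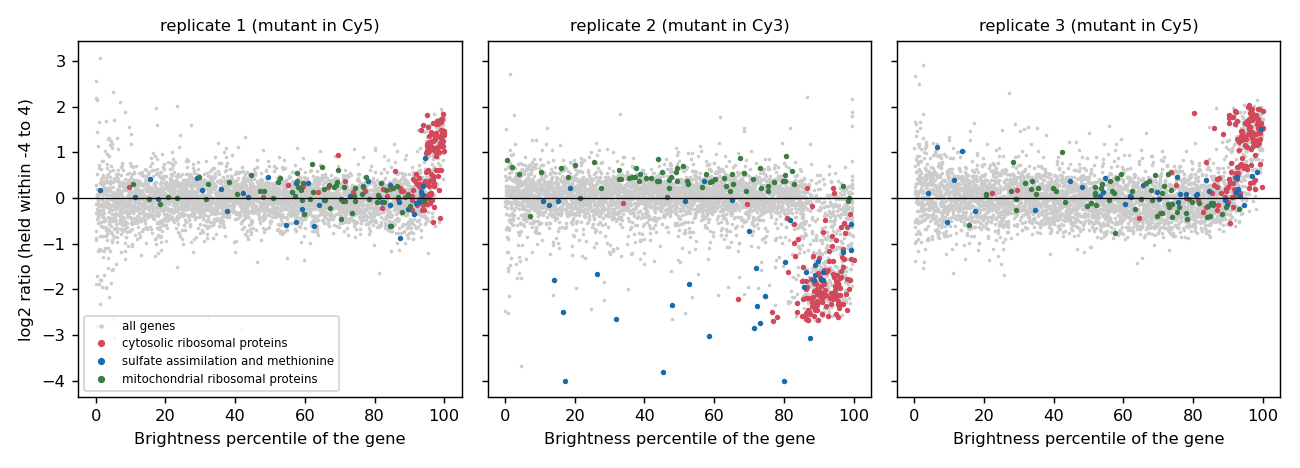
Each point is a gene, placed by its brightness percentile on that array (x) and its log2 ratio of PG-353 over the GFP reference (y), with 1 panel per array and points beyond 4 drawn at the edge. The cytosolic ribosomal protein genes, among the brightest, lie above 0 on replicates 1 and 3 and below 0 on replicate 2, and the sulfate and methionine genes lie low on replicate 2 alone.

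The array labelled PG-353 replicate 1 also stood apart in 2 genes. AAD3, of the aryl-alcohol dehydrogenase family, read -2.60 on it and -0.34 and -0.50 on replicates 2 and 3. RDS1, a zinc cluster regulator of drug sensitivity, read -2.87 on it, the lowest of all 24 arrays, against -0.54 and -0.26. Values of that size otherwise came from 2 strains set against the DsRed reference. The 6 arrays of PR-338 and PR-164 ran from -3.48 to -1.28 for AAD3 and from -2.28 to -1.46 for RDS1. On slide 1, AAD3 was also at -1.30 in both PG-259 and PG-132. Across genes, the array of slide 1 most like PG-353 was that of PR-164 (Spearman correlation 0.67). On slides 2 and 3 it was that of PG-259 (0.67) and of PG-132 (0.72). AAD3 and RDS1 were singled out after their values were seen, and whether the array labelled PG-353 replicate 1 holds other RNA than its label says was not tested. Fitted values without it are given beside SPR1, the genes on one side of 0 and the lists.

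Genes that mark mating type, a check of the labelled strain background, gave no call. The 7 a-cell genes had fitted ratios from -0.51 to 0.15 and the 4 alpha-cell genes from -1.02 to 0.60. In limma 0 of the 11 had an unadjusted p under 0.05, against 4.01% lower and 2.33% higher over all genes. A count of 0 among 11 is near those shares. On single arrays the a-cell genes ran from -1.89 to 1.67 and the alpha-cell genes from -2.25 to 1.40, so the check is weak. The median of each of the 16 nuclear chromosomes lay between -0.12 and 0.06 on single arrays. The 17 genes of the mitochondrial chromosome had medians of 0.27, -0.15 and 0.50.

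A single gene, SPR1, was called lower in PG-353 (limma, 0.0246% of the 4069 genes), and 0 genes (0% of them) were called higher. At an unadjusted p under 0.05 there were 163 lower genes (4.01%) and 95 higher ones (2.33%). SPR1 encodes an exo-1,3-beta-glucanase made during sporulation, known for its part in the heat resistance of spores. Its log2 ratio was -0.85, -1.43 and -1.54 on the 3 arrays, a mean of -1.27 ± 0.37 (SD, n = 3). All 3 values lay below those of the other 21 arrays, which ran from -0.71 to 0.56 with a median of -0.07 and of which 4 had a value from 1 probe only. The fitted ratio was -1.32 ± 0.16 (limma, adjusted p = 0.000405), which is a ratio of 0.400 on the linear scale. Without replicate 1 it was -1.49 ± 0.19 (limma, adjusted p = 0.00111).

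The 2 probes for SPR1 did not give the same picture. Probe 1 read -0.37, -0.55 and 0.05, within the range of the other 21 arrays (-0.56 to 1.87), and its fitted ratio in a limma fit over 8144 probes was -0.35 ± 0.30 (adjusted p = 0.999). Probe 2 read -1.32, -2.32 and -3.12, against -2.25 to 0.37 on the 17 other arrays where it had a value. Its fitted ratio was -2.29 ± 0.35 (limma, adjusted p = 0.0974). The low level of the gene thus rests on probe 2, and neither probe passed on its own. The spots were dim, at brightness percentiles of 8.80, 3.07 and 2.38 on the 3 arrays. With the dimmest 25% of spots left out, the fitted ratio was -1.33 and the gene was no longer called (limma, adjusted p = 0.798). With slide 2 read the other way it was -0.23 (limma, adjusted p = 0.831), and the 3 arrays of PG-353 fitted alone gave -1.27 (limma, adjusted p = 0.901). Leaving out all 8 arrays of slide 1, of slide 2 or of slide 3 also left 0 calls (limma, 172 to 306 genes at an unadjusted p under 0.05).

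**Figure D2:**
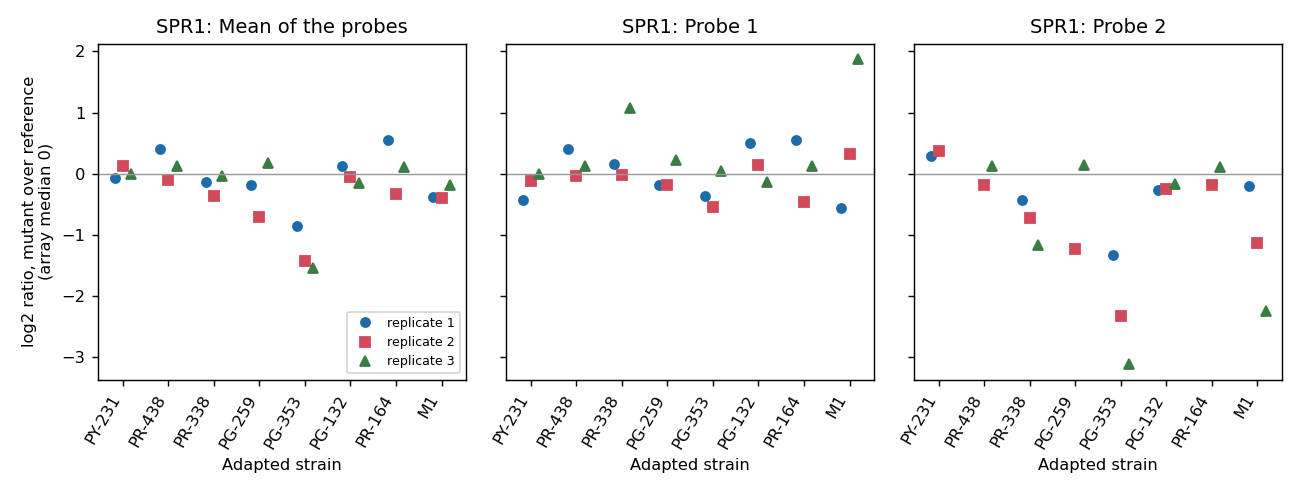
Log2 ratio of SPR1 (y, array median 0) on each of the 24 arrays by adapted strain (x), as the mean of its probes and for each probe, with a marker per replicate. In the mean PG-353 lies lowest, at -0.85 to -1.54; probe 1 shows PG-353 among the other strains, and probe 2 shows it at -1.32 to -3.12.

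The other strains set against the GFP reference did not have SPR1 at this level. Its fitted ratio was -0.29 ± 0.16 in PG-259 and -0.07 ± 0.16 in PG-132, with n = 3 arrays each. PG-353 was lower than their mean by a log2 ratio of -1.14 ± 0.19 (limma, adjusted p = 0.0451), and SPR1 was the only gene called in that comparison (0.0246% of 4069), in which 54 genes (1.33%) had an unadjusted p under 0.05. This call was lost without the array of PY-231 replicate 1, whose 2 probes per gene did not correlate (-0.01). The adjusted p was then 0.0625 in limma. It was 0.357 without PG-353 replicate 2 and 1.00 without replicate 3.

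Genes related or next to SPR1, picked after the values were seen, gave no call. EXG1, the main secreted exoglucanase and a relative of SPR1, read 0.32, -1.70 and 0.10, and EXG2, a further exoglucanase, read 0.36, -0.30 and 0.27. Neither had the low values of SPR1 on all 3 arrays. Beside SPR1 on chromosome XV, IES4, a subunit of the INO80 chromatin remodeller, read 0.11, 0.07 and -0.25. ULS1, a SUMO-targeted ubiquitin ligase on the other side, read 0.29, -0.25 and 0.17. Of the 79 measured genes of meiosis and sporulation, SPR1 was the 1 called. Their median fitted ratio was 0.00, and 12 (15.4%) lay below 0 on all 3 arrays against 13.3% of all genes. These genes are dim, at a median brightness percentile of 6.41, 6.91 and 6.19 on the 3 arrays. CDA1, a chitin deacetylase of the spore wall, read 1.85 and 0.42 on replicates 2 and 3 and had no value on replicate 1. DIT2, an enzyme of the dityrosine layer of the spore wall, read -6.07, 0.29 and -1.36, with 1 of its 2 probes lacking a value on replicate 1. ADY4, a spindle pole body protein of meiosis, read 2.32, -0.39 and 0.38. Neither kept a side.

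With few calls, the arrays were read for genes that kept one side of 0 on all 3 slides, and so with either dye. Of the 4067 genes measured on all 3 arrays, 584 (14.4%) lay above 0 throughout and 540 (13.3%) below. Both probes did so for 239 genes above 0 (5.98% of 3995) and for 273 below (6.83%). The 15 genes farthest from 0 on their nearest array are described on each side. They were chosen by these values, which are thus a description, and SPR1 was the 1 gene called among the 30.

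Several of the 15 genes below 0 encode proteins of the cell surface. PIR3, an O-glycosylated wall protein bound to glucan, read -1.18, -1.37 and -1.43. SPI1, a wall protein known to help cells withstand weak acids, read -0.95, -1.74 and -0.86. DAN1, a mannoprotein of cells without oxygen, read -1.25, -2.53 and -0.70. YPS3, a surface aspartic protease, read -1.35, -0.56 and -1.45. In each of these 4 genes both probes lay below 0 on every array. Their fitted ratios were also below 0 in PG-259 and PG-132, which share the reference, as were those of all 15 genes of this side. How often this holds over all genes was not counted.

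Others of the 15 act in metabolism and regulation. MAE1, the mitochondrial malic enzyme, which makes NADPH, read -1.0, -1.26 and -0.77. SOL4, a 6-phosphogluconolactonase of the pentose phosphate pathway, read -0.79, -0.81 and -0.52. TYE7, an activator of glycolytic genes, read -0.61, -0.66 and -1.31, and its fitted ratio was -0.77 ± 0.24 (limma, adjusted p = 0.690). GAT1, which activates nitrogen catabolic genes, read -0.81, -0.54 and -0.64. THR1, the homoserine kinase of threonine synthesis, read -0.99, -0.57 and -0.55. The spread between arrays was small in CPR6, a cyclophilin that works with Hsp90, at -0.72, -0.64 and -0.76. Its fitted ratio was -0.67 ± 0.21 (limma, adjusted p = 0.690). The rest were ANB1, the translation factor eIF5A of low oxygen, PDR17, a phosphatidylinositol transfer protein, the nucleoporin NSP1 and the actin-binding protein ABP1. Fitted ratios of the 15 ran from -1.43 to -0.61, and from -1.61 to -0.54 without replicate 1. With slide 2 read the other way 9 of the 15 kept a fitted ratio below 0.

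Above 0, several genes encode mitochondrial proteins. MRPL20, MRPL6 and MRPL49 belong to the large subunit of the mitochondrial ribosome. MRPL20 read 0.69, 0.67 and 1.01, and its fitted ratio was 0.82 ± 0.20 (limma, adjusted p = 0.396), but on replicate 3 its probes read -0.37 and 2.39. MRPL6 read 0.45, 0.52 and 0.53, and MRPL49 read 0.62, 0.43 and 0.52. SDH3, which anchors succinate dehydrogenase in the inner membrane, read 0.68, 0.64 and 0.61. AEP2, needed to translate a mitochondrially encoded subunit of the ATP synthase, read 0.76, 0.46 and 0.46. MAM33, an acidic matrix protein, read 0.58, 0.77 and 0.50. PNT1, which helps export proteins into the inner membrane, read 0.45, 0.63 and 0.47. CIT3, the mitochondrial methylcitrate and citrate synthase, read 0.51, 0.46 and 1.83, so its size came from replicate 3. All of these but MRPL20 had both probes above 0 on every array.

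The other genes of this side have varied roles. AAD4, a paralog of AAD3, read 0.44, 0.95 and 0.53, whereas AAD3 was below 0. Spots of such close relatives may share RNA, so their levels are uncertain, which also holds for paired ribosomal protein genes, the hexose transporters and Hsp70 genes below. YNK1, the nucleoside diphosphate kinase, had the closest agreement at 0.58, 0.56 and 0.56. Its fitted ratio was 0.40, yet -0.0084 without replicate 2. The arrays then left share a dye orientation, so the dye term, 0.51 for this gene in the main fit, was subtracted in full. Its fitted sign thus rests on the dye term, which draws on the other strains, while its values on the arrays left stayed above 0. HSP30, a plasma membrane stress protein that restrains the proton pump Pma1, read 0.47, 0.65 and 0.94. BAP2, a permease for branched-chain amino acids, read 0.81, 0.61 and 1.23, but its probes read -0.14 and 1.76 on replicate 1. BIO3 of biotin synthesis read 0.81, 0.55 and 0.46, with probes at -0.82 and 2.43 on replicate 1. ARG8 of arginine synthesis and POL2, the catalytic subunit of DNA polymerase epsilon, complete the 15. Fitted ratios ran from 0.40 to 0.82, or from 0.46 to 1.15 without replicate 1. With slide 2 read the other way 14 of the 15 stayed above 0 in the fit. In PG-259 13 of the 15 had the same sign, and in PG-132 12. These strains share the reference, the slides and the dye term with PG-353, and the share of all genes with the same sign was not counted.

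**Figure D3:**
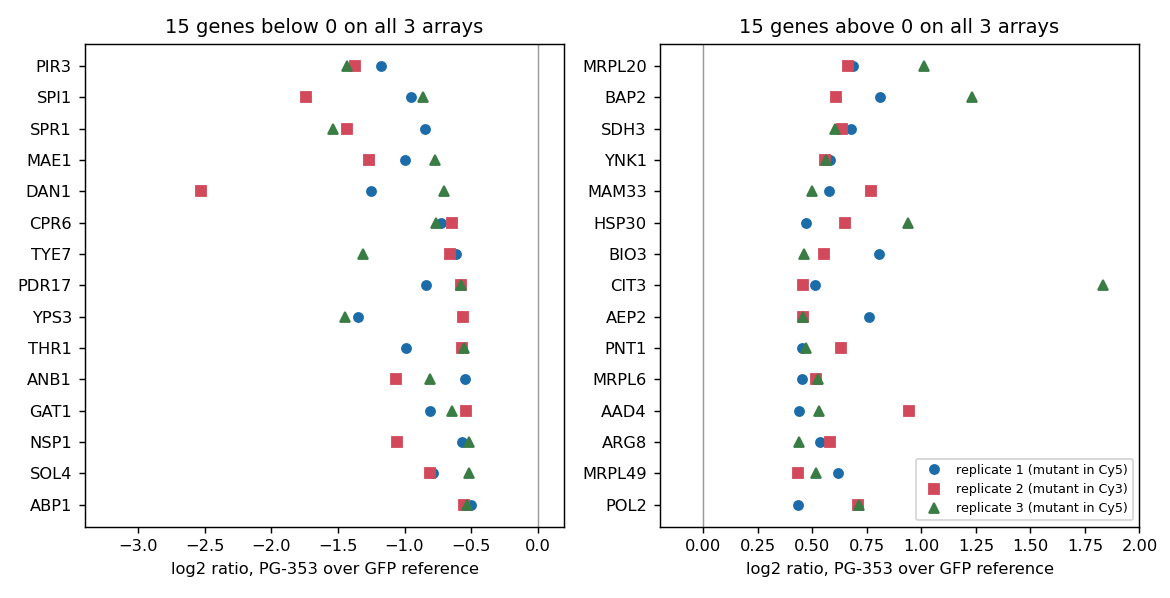
Log2 ratio of PG-353 over the GFP reference (x) for the 15 genes farthest below 0 and the 15 farthest above 0 on their nearest array (y), with a marker for each of the 3 arrays. The genes were chosen for lying on one side, from 0.50 to 2.53 below 0 and from 0.43 to 1.83 above it.

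Gene lists were then described by their medians and counts. Over all 4069 genes the median fitted ratio was -0.03 and 45.3% lay above 0. Among 50 lists the median ranged from -0.63 to 0.19, and 26 lay within 0.1 of 0. The 2 lists with a called member held SPR1. Without replicate 1 the fitted median turned from -0.15 to 0.12 in the tricarboxylic acid cycle and moved from -0.24 to -0.01 in the respiratory chain. It moved from -0.63 to -0.77 in the sulfate list, from -0.49 to -0.38 in the cytosolic ribosome, from -0.48 to -0.32 in the Msn2 and Msn4 targets and from -0.36 to -0.46 in the hypoxic list. In the other 8 described lists it kept its sign and moved by at most 0.07. With slide 2 read the other way the median changed sign in 11 of the 14 lists described, the exceptions being the iron, hexose and sporulation lists, so these directions rest on slide 2, whose reading was taken from the genes of M1, PR-338 and PR-164 given above.

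The mitochondrial ribosome list, 64 measured genes taken by gene name, had the highest median, 0.19 in the fit. It also holds MRP8, whose place in that ribosome is doubtful. Array medians were 0.11, 0.42 and -0.02, and 42, 61 and 31 members lay above 0 on the 3 arrays. Above 0 on all 3 were 26 members (40.6%, against 14.4% of all genes), and 19 with both probes (29.7%, against 5.98%). On replicates 2 and 3 alone 31 members (48.4%) lay above 0, against 23.1% of all genes. None was called, and 8 (12.5%, against 2.33% of all genes) were higher at an unadjusted p under 0.05 in limma. MRPL7 of the large subunit read 0.46, 0.37 and 0.79, and MRPL9, also of that subunit, read 0.55, 0.65 and 0.22. MRPS5 of the small subunit was above 0 on replicates 1 and 2, at 0.52 and 0.87, and at -0.19 on replicate 3. The list's median was 0.06 in PG-259 and 0.05 in PG-132. On slide 2 the value of 0.42 was above those of the 7 other strains, which ran from -0.46 to 0.25. On slides 1 and 3 PG-353 lay within their range. The difference between lists was not tested. With slide 2 read the other way the median was -0.13.

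The respiratory chain, some of whose subunits the mitochondrial ribosome makes, and the tricarboxylic acid cycle had opposite directions on the slides. The 44 respiratory and ATP synthase genes had medians of 0.25, -0.80 and 0.56, with 8 members (18.2%, against 14.4% of all genes) above 0 on all 3 arrays. The 22 cycle genes had medians of 0.09, -0.32 and 0.62, with 6 (27.3%, against 14.4%) above 0 throughout. NDI1, the internal NADH dehydrogenase, read 0.25, 1.53 and 0.65, and ATP5, a stalk subunit of the ATP synthase, read 0.83, 0.31 and 0.70. SDH1, the flavoprotein subunit of succinate dehydrogenase, read -0.48, -1.58 and 0.26, unlike SDH3. Aconitase, encoded by ACO1, read 0.25, -2.41 and 1.28, and PYC2, a pyruvate carboxylase, read -0.19, -1.88 and 0.14. COX13, a cytochrome c oxidase subunit, read 0.34, -1.37 and 0.85, and ATP18 of the ATP synthase read 0.06, -1.11 and 0.58. Most of both lists is bright, at median brightness percentiles of 90.6 to 93.0.

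The hypoxic and anaerobic genes, which yeast holds low while oxygen and heme are at hand, had the largest share below 0. Of 26 measured, 10 (38.5%, against 13.3% of all genes) lay below 0 on all 3 arrays, and 8 of the 25 with both probes measured did so with both (32.0%, against 6.83%). The median was -0.36 in the fit and -0.12, -1.06 and 0.02 on the arrays, by far the lowest on replicate 2. On slide 2 the medians of the 7 other strains ran from -0.87 to 0.43. On replicates 2 and 3 alone 10 of 26 (38.5%) lay below 0, against 21.3% of all genes. HEM13, an oxygen-dependent enzyme of heme synthesis, read -0.68, -1.48 and -0.30. HMG2, an isozyme of HMG-CoA reductase in sterol synthesis, read -0.23, -0.63 and -0.18. ANB1, named above, read -0.55, -1.07 and -0.81. TIR1, a wall mannoprotein, read -0.98, -1.80 and 0.04. The list's median was -0.36 in PG-259 and -0.41 in PG-132. For PG-353 minus the mean of those strains, 0 of its 26 genes had an unadjusted p under 0.05 in limma. Only 1.33% of all genes did, so a count of 0 tells little about a list of this size.

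The cell wall lists overlap with the hypoxic list in their mannoproteins. Of 44 mannoprotein genes 8 (18.2%, against 13.3% of all genes) lay below 0 on all 3 arrays and 1 (2.27%, against 14.4%) above. Array medians were -0.23, -0.38 and 0.11. TIP1 read -0.22, -1.93 and -0.12, and SIM1, of the SUN family, read -0.87, -1.56 and 0.36. Of 36 genes of glucan synthesis, glucanases and wall cross-linking, 10 (27.8%, against 13.3%) lay below 0 throughout and 5 (13.9%, against 14.4%) above. FKS1, the main glucan synthase, read -0.16, -1.22 and 0.02, and its paralog GSC2, looked up after its values were seen, read -0.18, -0.18 and -0.14. FKS1 was called lower in PG-259 (fitted ratio -1.27, limma, adjusted p = 0.0303) and in PG-132 (-1.08, limma, adjusted p = 0.0387). In PG-353 it was not called (-0.76, limma, adjusted p = 0.690). UTR2, which links chitin to glucan, read -0.09, -2.30 and -0.48, while KNH1, a relative of the glucan assembly gene KRE9, read 1.96, 0.77 and -0.41, with probes at 4.00 and -0.07 on replicate 1. Fitted medians of the mannoproteins were -0.23 in PG-259 and -0.32 in PG-132, against -0.18 in PG-353. For the glucan list they were -0.16 and -0.18, against -0.16 in PG-353.

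Stress genes showed a similar picture. Among 27 targets of Msn2 and Msn4, the activators of the general stress response, 8 (29.6%, against 13.3% of all genes) lay below 0 on all 3 arrays. Above 0 throughout were 0, against 14.4% of all genes. With both probes 6 lay below 0 (22.2%, against 6.83%). Their medians were -0.22, -1.13 and 0.13. GRE1, a hydrophilin, read -0.55, -0.28 and -0.93, and SIP18, a related phospholipid-binding protein, read -0.29, -1.24 and -0.50. SSA4, the stress-induced Hsp70, read -0.06, -1.90 and -0.51. Among 34 genes of Hsp70, Hsp90 and folding, 9 (26.5%, against 13.3%) lay below 0 throughout, 8 of them with both probes (23.5%, against 6.83%). SSA2, a constitutive Hsp70, read -1.15, -1.13 and -0.25. AHA1, which activates the Hsp90 ATPase, read -0.43, -0.67 and -0.69, beside the Hsp90 partner CPR6. SSZ1, an Hsp70 on the ribosome, read -0.15, -0.98 and -0.29. None of these genes was called. In PG-259 and PG-132 the stress list's medians were 0.77 and -0.04 on slide 1, -1.36 and -1.20 on slide 2, and -0.75 and -0.25 on slide 3. Over the 7 other strains of slide 2 this list's median ran from -1.36 to 0.12. The fitted medians of PG-259 and PG-132 were -0.58 and -0.66, against -0.48 in PG-353.

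The sulfate and methionine genes had the lowest fitted median, and among the array medians of PG-353 only that of replicate 2 was low. The fitted median does not rest on that array alone, since the dye term also draws on slide 2 of the other strains. The 38 genes had a fitted median of -0.63, but array medians of 0.00, -1.67 and 0.12. Above 0 were 19 members on replicate 1, 2 on replicate 2 and 28 on replicate 3. MUP1, the high-affinity methionine permease, read 0.04, -4.21 and -0.11. MET14, the kinase that activates sulfate further, read 0.26, -2.84 and 0.13. SAM1, which makes S-adenosylmethionine, read -0.87, -1.80 and 0.21, and MET10, of sulfite reductase, read -0.36, -1.79 and -0.04. The same slide gave -1.73 in PG-259 and -1.93 in PG-132, while slides 1 and 3 gave -0.21 to 0.21 for these strains. Over the 7 other strains of slide 2 the list's median ran from -1.93 to 0.31, so not every array of that slide was low. Below 0 on all 3 arrays of PG-353 were 8 genes (21.1%, against 13.3% of all genes), 2 of them with both probes (5.56%, against 6.83% of all genes). In a fit of the 9 GFP arrays alone, 9 genes were called lower in PG-353 (limma), SPR1, FAA4 and 7 genes of sulfur metabolism (MET1, MET8, MET32, MHT1, MUP1, STR3 and SUL2), all named because that fit called them. The labels give each slide 1 dye orientation for all its arrays, so dye and slide cannot be told apart.

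The cytosolic ribosome list, 136 genes taken by gene name, had the widest swing between arrays, with medians of 0.46, -2.0 and 1.21. It also holds RPP1, which belongs to RNase P, at 0.23, -0.11 and 0.17. Above 0 were 117, 3 and 126 members. RPS7B read -0.02, -1.89 and -0.19 and RPL37B read 0.18, -2.13 and 0.12. RPL13B and RPS27B were also far lower on replicate 2, at -1.95 and -2.22. Of the 136, 0 were called and 27 (19.9%, against 4.01% of all genes) were lower at an unadjusted p under 0.05 in limma. These were among the brightest spots, at median brightness percentiles of 91.1 to 95.7, and the trend with brightness given above ran the same way on each array. Its part in the result was not tested beyond a loess on brightness, after which the median was -0.56 against -0.49. The other strains on slide 2 ran from -3.07 to -1.47.

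**Figure D4:**
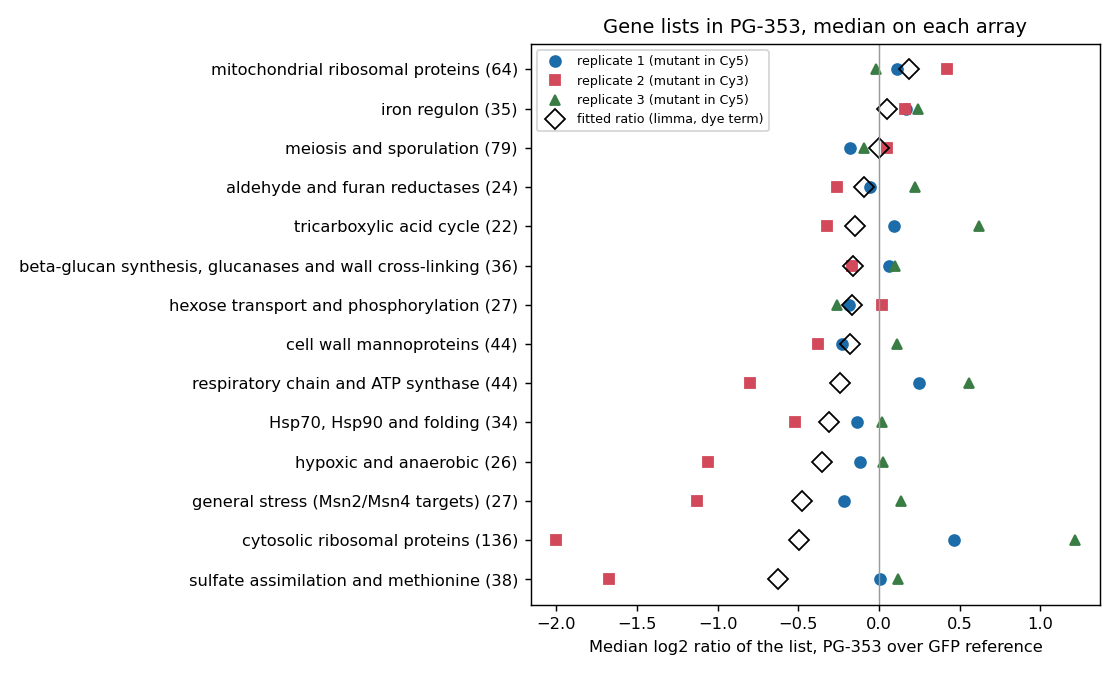
Median log2 ratio (x) of 14 gene lists (y, with the number of genes measured), for each array of PG-353 and for the fitted ratio (open diamonds). Replicate 2 lies far below the others in the ribosomal, sulfate, stress, hypoxic and respiratory lists, and above them in the mitochondrial ribosome.

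The iron regulon, the genes that Aft1 switches on when iron is short, was the one described list with array medians close together above 0, at 0.17, 0.16 and 0.24. Of 35 genes 9 (25.7%, against 14.4%) lay above 0 on all 3 arrays, and 5 of 34 with both probes (14.7%, against 5.98%). The fitted median was 0.05, and 0.10 in a fit without the dye term. FTR1, the high-affinity iron permease, read 0.25, 0.64 and 1.43, with a fitted ratio of 0.81 ± 0.21 (limma, adjusted p = 0.475), but on replicate 3 its probes read 2.74 and 0.12. The siderophore transporters ARN1 and SIT1 read 0.54, 0.37 and 1.25, and 0.63, 0.93 and 0.40. BIO5, a biotin precursor transporter, was below 0, at -0.65, -0.07 and -0.75. In PG-259 and PG-132 the list's medians were 0.14 and 0.12 on slide 1, 0.25 and 0.24 on slide 2, and -0.11 and -0.10 on slide 3. Their fitted medians were 0.09 and 0.07, and the differences from PG-353 were not tested.

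The genes that act most directly on hydrolysate gave no call. Of 24 aldehyde and furan reductases, 4 (16.7%, against 13.3% of all genes) lay below 0 on all 3 arrays and 2 (8.33%, against 14.4%) above. In limma 0 had an unadjusted p under 0.05, against 4.01% lower and 2.33% higher over all genes. With 24 genes these counts set the list little apart. ALD3, an aldehyde dehydrogenase of stress, read -0.20, -2.66 and -0.07, and ADH2, the alcohol dehydrogenase of ethanol use, read -0.87, -0.04 and -0.38. OYE2, an NADPH dehydrogenase, ran from -2.31 on replicate 2 to 1.77 on replicate 3, and GCY1, an aldo-keto reductase, from -1.13 to 0.86. Of 27 genes of hexose transport and phosphorylation, 3 (11.1%, against 13.3%) lay below 0 throughout and 1 (3.7%, against 14.4%) above. HXT14, a member of the transporter family, had the largest moderated t of the list, at -1.95, 0.40 and -0.83 on the arrays, with 1 of its 2 probes lacking a value on replicate 1. HXT7, a high-affinity transporter, read 1.09, -2.70 and 1.05, HXT4 read 0.01, -0.92 and -0.52, and the low-glucose sensor SNF3 read 0.04, 0.75 and -0.29.

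**Figure D5:**
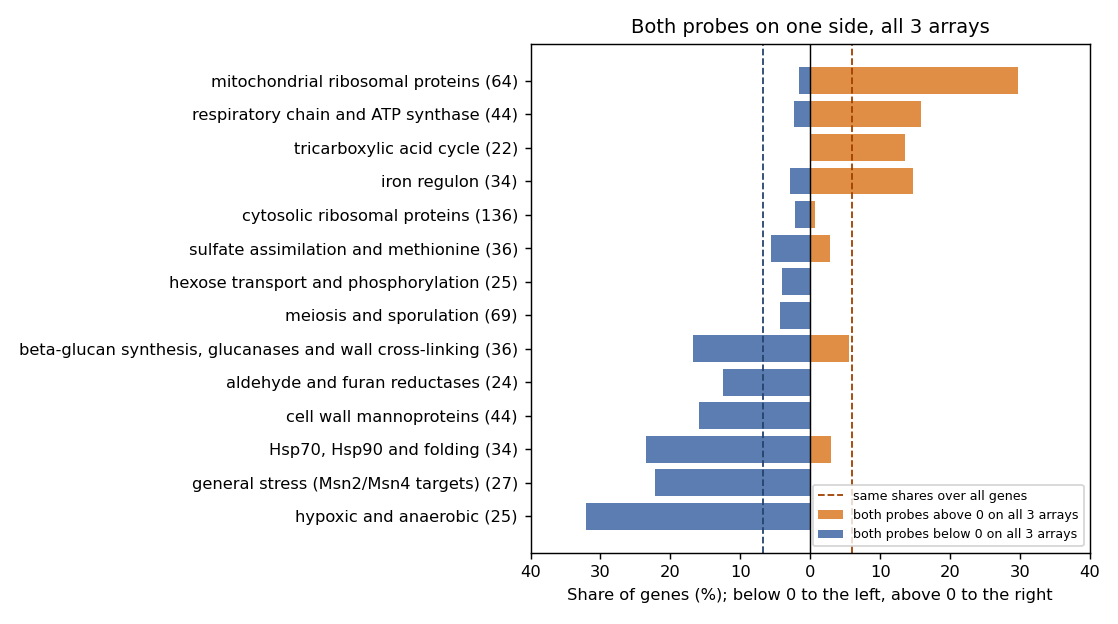
Share of the genes of 14 lists (x, in percent of genes with both probes measured on all 3 arrays, their number in brackets) whose probes both lay above 0 (orange, right) or below 0 (blue, left) on all 3 arrays of PG-353. Dashed lines mark the shares over all genes, 5.98% above and 6.83% below; the mitochondrial ribosome reaches 29.7% above and the hypoxic list 32.0% below.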

How the data were processed

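RNA of adapted strains and references was hybridised on 2-colour spotted arrays, read as GenePix result files per the labels. The deposited values, in another unit than a normalised log ratio, are linear ratios of background-subtracted brightness without scaling, as their form as quotients of whole numbers and array medians of 0.486, 3.10 and 0.439 on the PG-353 arrays show. Further steps of the authors are not given in the sources used here. From 15744 probes, 8152 with 1 gene symbol in the platform annotation gave 4069 genes, each the mean of its probes, after 125 symbols were updated through the R64 gene catalogue, while 4 symbols had no match, and 7592 probes without a symbol were not analysed here. Spots at or below 0 (3.25% to 5.39% on the PG-353 arrays) were left out, and array medians of log2 ratios set to 0. Brightness of the channels was read from the quotients, by fractions in lowest terms. No brightness filter was applied. Signal over background and the number of arrays limit the precision.

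limma 3.58.1 (R 4.3.3, with the data.table package, version 1.17.8) fitted a coefficient per strain and a dye term to all 24 arrays, with the mean of PG-259 and PG-132 as a contrast. How much the GFP reference itself varies is not part of a test against 0, and the dye term takes what slide 2 shares out of the residuals. In data simulated for PG-353 on 4036 genes, the fit called 78% of genes changed by 1 on the log2 scale and 98% of those changed by 2, with 12 false calls. The simulated residuals were normal and independent between genes and arrays, without the trend with brightness or missing spots. These rates thus do not tell how many changes the real arrays would miss. Python 3.11.15, pandas 2.3.3, numpy 2.4.6, statsmodels 0.14.6 and matplotlib 3.10.9 were also used. The replicate number is the slide, per the labels, and deviations from strain means correlated at 0.16 to 0.86 between PG-353 and the other GFP strains, so slides pair the arrays. Slides were also fitted as a block. Alternatives covered the direction of slide 2, the dye term, the arrays fitted, loess on brightness, scaling, the probe summary, spots at a floor and dim spots. A search for promoter motifs was not run, for want of sequences here.

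The strain and the lists were chosen with earlier results of these data known. Genes were named by rule: those called in either comparison, the 15 on each side of 0 farthest from it on their nearest array, and up to 4 members per described list with the largest moderated t. Exceptions are stated.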

Additional observations from a re-analysis of the deposited data

Results flagged for a closer look

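SPR1 was lower in PG-353 than in the mean of PG-259 and PG-132 by a log2 ratio of -1.14 ± 0.19 (limma, adjusted p = 0.0451), and is listed because the strains of the GFP reference differ in it by a test of the difference. In the mean of the probes all 3 arrays of PG-353 lay below all 6 of the other strains, of which PG-259 replicate 1 had a value from probe 1 only. With spots at or below 0 set to a floor the difference was -0.57 ± 0.78 and was not called. On its own, probe 1 differed by -0.35 and probe 2 by -1.88, and neither passed (limma, adjusted p = 1.00 for both).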

How the results depend on the processing

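SPR1 remained called without each array of PG-353 in turn, with slides as a block (adjusted p = 0.000521), without the dye term, after loess, with equal array spread and with the 9 GFP arrays alone (limma, adjusted p = 7.79e-05 to 0.0432). It was lost with slide 2 turned over, in PG-353 arrays fitted alone, with spots at or below 0 set to a floor (-1.19, adjusted p = 0.893), with dim spots left out and at the probe level. These settings and leaving out the whole of slide 1, 2 or 3 (added, like the probe level, after the data were seen) gave 0 calls, with 158 to 629 genes at an unadjusted p under 0.05 in limma. The count was 9 with the GFP arrays alone and 2 after loess (SPR1 and GAR1). For PG-353 minus the mean of PG-259 and PG-132, the count went from 1 to 0 without the dye term, with slide 2 turned over, with the GFP arrays alone, without PY-231 replicate 1, after loess, at a floor, without dim spots and at the probe level (limma, 39 to 121 genes at an unadjusted p under 0.05). It was 0 to 1 over the fits that left out replicates, and 1 with the block, which changed no call. The cause of each loss was not tested.

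Turning slide 2 over, which the genes of M1, PR-338 and PR-164 given in the report go against, shows how much rests on that slide. List medians were then -0.13 (mitochondrial ribosome), 0.49 (respiratory chain), 0.48 (tricarboxylic acid cycle), 0.30 (hypoxic), 0.083 (mannoproteins and glucan), 0.40 (Msn2 and Msn4 targets), 0.19 (Hsp70 and Hsp90), 0.72 (sulfate), 1.55 (cytosolic ribosome), 0.22 (reductases), 0.00098 (iron) and -0.13 (sporulation). Of 85 single values 43 changed sign. Those above 0 were then MAE1 0.0014, ANB1 0.0079, SPI1 0.066, ABP1 0.072, NSP1 0.12, HMG2 0.13, SIP18 0.15, SSA2 0.20, HEM13 0.28, DAN1 0.42, HXT4 0.43, SSZ1 0.43, SSA4 0.54, GCY1 0.59, TIP1 0.67, MET10 0.68, SAM1 0.69, FKS1 0.71, SIM1 0.76, TIR1 0.76, ATP18 0.78, SDH1 0.78, ALD3 0.85, RPS7B 0.93, PYC2 0.94, EXG1 1.01, UTR2 1.01, RPL13B 1.06, COX13 1.11, RPL37B 1.15, MET14 1.27, RPS27B 1.31, OYE2 1.57, MUP1 1.58, ACO1 1.58, HXT7 1.85. Those below 0 were AAD4 -0.067, CDA1 -0.72, MRPL9 -0.019, MRPS5 -0.24, NDI1 -0.33, SIT1 -0.082, SNF3 -0.39. CDA1 was -2.25 at a floor. Leaving out single arrays of PG-353 turned 5 more, with ranges of -0.0072 to 1.20 for ADY4, -0.015 to 0.21 for EXG2, -0.041 to 0.20 for ULS1, -0.0084 to 0.57 for YNK1 and -0.15 to 0.089 for IES4. The iron median was 0.10 without the dye term or in PG-353 arrays alone, 0.18 without dim spots, and 0.072 to 0.11 without single arrays, over which the hexose median was -0.34 to -0.093.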
